A study of Arabidopsis thaliana with 6 samples.

Results

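The enzymes that make ascorbate (vitamin C) in leaves were followed at the transcript level in the *Arabidopsis thaliana* catalase mutant *cat2-2*. The set was fixed by locus and holds 7 of the 33602 genes in the count table: VTC1 (AT2G39770), GME (AT5G28840), VTC2 (AT4G26850), VTC5 (AT5G55120), VTC4 (AT3G02870), L-galactose dehydrogenase (L-GalDH, AT4G33670) and GLDH (AT3G47930). All 7 were counted in every library and all 7 passed the filter on low counts.

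Ascorbate is the main water-soluble antioxidant of leaves and the electron donor of the ascorbate peroxidases, which remove hydrogen peroxide. Plants make it mostly by the L-galactose pathway. VTC1 makes GDP-mannose, GME turns it into GDP-L-galactose, VTC2 and VTC5 release L-galactose phosphate from it, VTC4 removes the phosphate, L-GalDH oxidises L-galactose in the cytosol, and GLDH finishes the molecule at the inner mitochondrial membrane. The step of VTC2 and VTC5, GDP-L-galactose phosphorylase, is known as the first one committed to ascorbate and as the main point of control, and in leaves the pathway is known to be more active in the light.

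Plants carried the *cat2-2* mutation of CAT2, the main leaf catalase, in the Columbia-0 ecotype, and all were raised over 3 weeks in air with 3000 ppm CO2, where photorespiration stays low, at 120 µmol of light per square metre and second, 75% relative humidity and 16 h light with 8 h dark. The high CO2 group (3 libraries, 0 h) was sampled from these plants. The high light group (3 libraries) was sampled after 3 h in another growth chamber in ambient air of 400 ppm CO2, 1200 µmol of light and 55% relative humidity. Both chambers were set to 21 °C, each library pooled middle-aged leaves of 15 plants, and the 3 repeats were separate set-ups. CO2, light, humidity, chamber and time of sampling all changed at once, so they cannot be told apart, and wild-type plants were not analysed here.

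Libraries held 18047295 to 24149149 counts. CAT2 itself was counted 1760, 2427 and 1752 times in high CO2 and 724, 1010 and 928 times after high light. With no wild type, these counts do not check the genotype label. The leaf mesophyll markers RBCS1A, CA1, RCA, GLDP1 and LHCB1.3 summed to 52639 to 73650.5 CPM (read counts scaled to library size with TMM factors) in high CO2 and 23121.5 to 32559 CPM in high light. The root markers summed to at most 1.20 CPM and the seed markers to at most 0.0521 CPM in any library, with PYK10, RHD6, VGD1 and OLEO1 at 0 counts in all libraries.

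The comparison asked how leaf transcripts differed between the high CO2 and high light groups, with all the conditions named above changed together. Of the 7 genes 3 fell in high light (VTC1, VTC2 and VTC4), 1 rose (VTC5) and 3 were not called (GME, L-GalDH and GLDH), where a call means that the quasi-likelihood test of edgeR gave a Benjamini-Hochberg adjusted p below 0.05 over all genes tested. Over all 18504 genes tested, 60.8% were called, 30.4% higher and 30.4% lower, so 4 called genes of 7 is near the background. The members' median log2 fold change was -0.36, against -0.06 over all genes tested. The libraries of the groups did not overlap for VTC1, VTC2, VTC4 and VTC5, which are 4 of 7, against 67.2% of all genes. A level is given with the SD of its 3 libraries and a log2 fold change, always high light against high CO2, with its standard error.

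**Figure D1:**
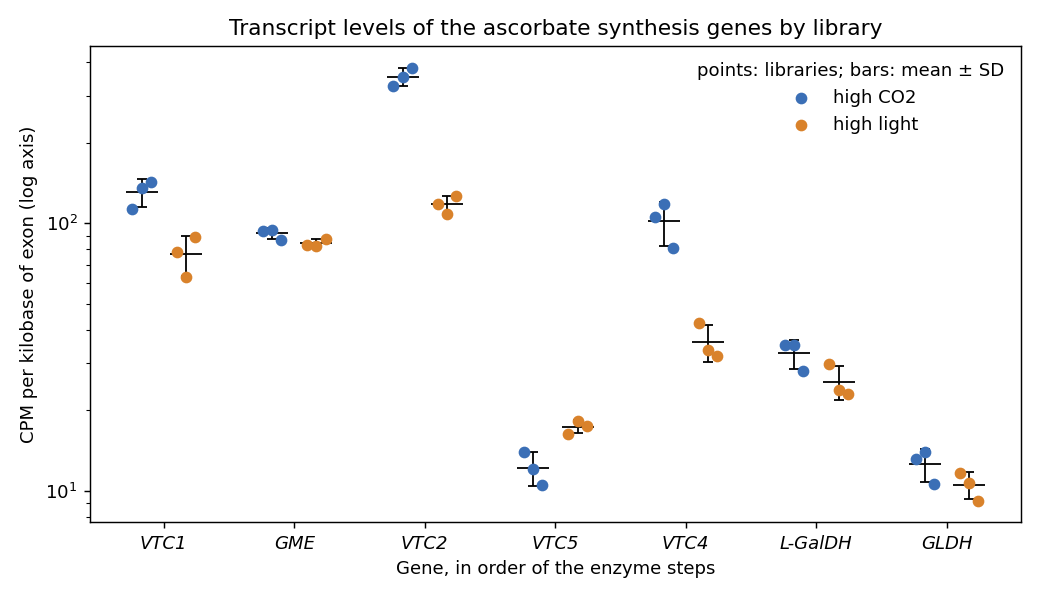
Transcript level of each gene in each library, in CPM per kilobase of exon on a log axis, with the mean and SD of the 3 libraries of each group; genes are ordered along the pathway. The VTC2, VTC1 and VTC4 points of high light lie below all of high CO2, the VTC5 points lie above, and those of GME, L-GalDH and GLDH overlap.

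The pathway starts with VTC1, GDP-mannose pyrophosphorylase, which also feeds the wall and the glycosylation of proteins. It had 215, 258 and 271 CPM in the high CO2 libraries, against 148, 120 and 169 CPM in high light. Every high light library lay below every high CO2 library, and the mean fell from 248 ± 29.4 to 145 ± 24.5 CPM (adjusted p = 0.00408 in edgeR, log2 fold change -0.77 ± 0.17). High light left 58.7% of the high CO2 level.

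GME, the epimerase that makes GDP-L-galactose, had 172, 173 and 159 CPM in high CO2 and 153, 151 and 160.2 CPM in high light. The groups overlapped, because high light replicate 3 lay just above high CO2 replicate 3. Its means were 168 ± 7.72 and 155 ± 4.95 CPM (adjusted p = 0.411 in edgeR, log2 fold change -0.12 ± 0.12). The 95% interval of the log2 fold change ran from -0.40 to 0.16, so the drop seen for VTC2 lies outside it.

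The committed step, GDP-L-galactose phosphorylase, is encoded by VTC2 and VTC5, and their transcripts went opposite ways. VTC2 is known for a further control at translation, through a reading frame in its leader, which transcript counts do not show. Its counts were 15105, 17437 and 16098 in the high CO2 group, against 5591, 5482 and 6054 after high light. Scaled to library size these were 714, 775 and 839 CPM against 258, 238 and 278 CPM, so the lowest high CO2 library was far above the highest high light library. The mean fell from 776 ± 62.2 to 258 ± 20.3 CPM, 3.01-fold lower (adjusted p = 2.6e-05 in edgeR, log2 fold change -1.59 ± 0.14). A fall this large or larger was called for 803 genes, 4.34% of those tested. By count VTC2 ranked 125 to 161 among all genes in the high CO2 libraries, against 543 to 594 in high light.

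VTC5, the second copy of the enzyme, had 27.5, 23.6 and 20.6 CPM in high CO2 and 32.0, 35.9 and 34.3 CPM in high light. All high light libraries lay above all high CO2 libraries, and the mean rose from 23.9 ± 3.45 to 34.1 ± 1.96 CPM, 1.43-fold higher (adjusted p = 0.0107 in edgeR, log2 fold change 0.51 ± 0.14). The rise of VTC5 depended on the scaling: with upper-quartile factors the log2 fold change was 0.24 and not called (edgeR adjusted p = 0.152, all edgeR refits giving 0.00579 to 0.152).

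The split between the copies needs no scaling between libraries. Per kilobase of exon, VTC2 made up 95.9%, 96.7% and 97.3% of VTC2 and VTC5 together in the high CO2 libraries, against 87.9%, 85.6% and 87.9% in high light. Its share was lower in every high light library, at 87.1% ± 1.33 against 96.6% ± 0.728 (n = 3 each; exact permutation test, two-sided p = 0.1, the smallest that 3 against 3 libraries can give). The ratio of VTC2 to VTC5 was 29.7 ± 6.61 in high CO2 and 6.81 ± 0.761 in high light. In sum the rise of VTC5 did not offset the fall of VTC2: the copies together had 366 ± 26.7 CPM per kilobase in high CO2 and 135 ± 8.91 in high light. The coding sequences of VTC2 and VTC5 were 80.3% identical over their longest aligned stretch of 951 bases, and none of the 7 genes matched another at 95% identity or more over 50% of its length.

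VTC4 encodes the phosphatase that releases L-galactose, and also acts on myo-inositol phosphate. It had 136, 153 and 104 CPM in the high CO2 libraries, against 54.8, 43.2 and 41.2 CPM in high light. The groups lay apart, although high CO2 replicate 3 was the lowest of its group. The mean fell from 131 ± 24.5 to 46.4 ± 7.34 CPM, 2.82-fold lower (adjusted p = 1.5e-04 in edgeR, log2 fold change -1.50 ± 0.18).

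The last steps showed smaller differences. L-GalDH, which makes L-galactonolactone, had 45.3, 45.2 and 36.1 CPM in high CO2 and 38.4, 30.9 and 29.7 CPM in high light, and the groups overlapped through high light replicate 1 and high CO2 replicate 3. Its means were 42.2 ± 5.29 and 32.98 ± 4.69 CPM (adjusted p = 0.0666 in edgeR, log2 fold change -0.36 ± 0.15). The L-GalDH value was lower in high light for each of the 3 replicate numbers, although the labels do not say that the numbers pair the libraries. With the replicate number as a block L-GalDH was called lower (log2 fold change -0.36, edgeR adjusted p = 0.0223). It was also called with upper-quartile factors (-0.62, edgeR adjusted p = 0.00647), without high CO2 replicate 3 (log2 fold change -0.39, edgeR adjusted p = 0.0415) and without high light replicate 1 (-0.48, edgeR adjusted p = 0.0303), with 0.00647 to 0.255 over the whole set of edgeR refits. An antisense neighbour shares 4.49% of the L-GalDH exon bases, and no other member shares any with another gene.

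GLDH, which makes ascorbate itself and is also needed to assemble respiratory complex I, had 32.6, 34.7 and 26.4 CPM in high CO2 and 28.9, 26.7 and 22.9 CPM in high light. Its groups overlapped, with means of 31.2 ± 4.31 and 26.2 ± 3.06 CPM (adjusted p = 0.164 in edgeR, log2 fold change -0.26 ± 0.15). The 95% interval of the GLDH log2 fold change was -0.59 to 0.08.

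**Figure D2:**
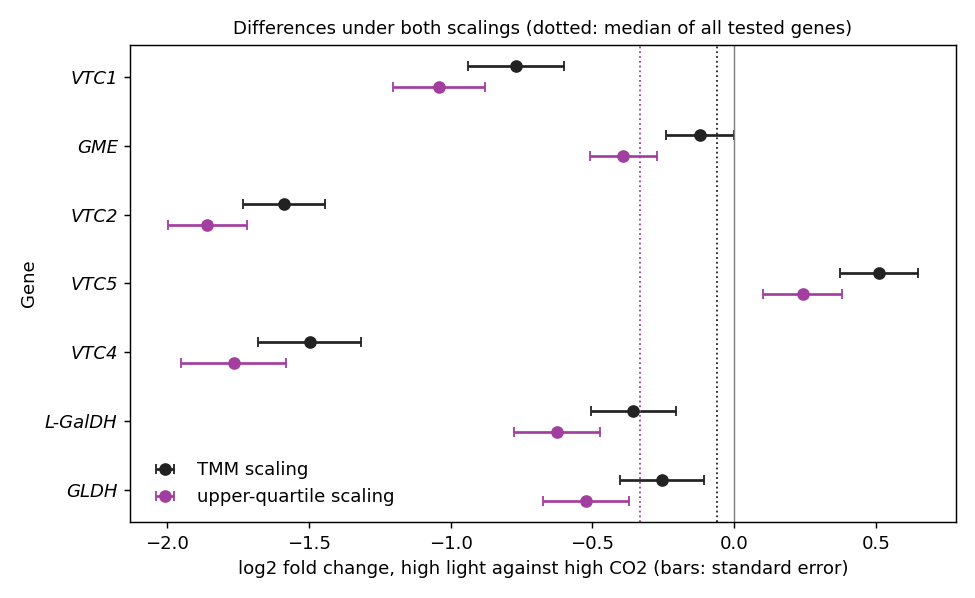
Log2 fold change of each gene, high light against high CO2, with its standard error, under TMM scaling (black) and upper-quartile scaling (purple); dotted lines mark the median of all tested genes. The upper-quartile values lie to the left of the TMM values for all 7 genes, and the order of the genes is the same.

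With upper-quartile scaling the median over all tested genes was -0.33 on the log2 fold change scale, against -0.06 with TMM. Under it 6 of the 7 genes were called lower and 0 higher, while over all genes 4386 were called higher and 7883 lower, against 5631 and 5616 with TMM. Relative to the median of all genes the members hardly moved: VTC2 was -1.53 under both scalings, VTC5 0.57 under both, GME -0.06 under both, and VTC4 -1.44 with TMM and -1.43 with upper-quartile factors. The plot of the fold changes shows this common shift to the left. A change of scaling moves all genes by nearly the same amount, so the match relative to the median was fixed in advance. It does not show which scaling is right.

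Levels were then compared between the genes, as CPM per kilobase of exon. In high CO2 VTC2 led with 354 ± 28.4, above VTC1 with 131 ± 15.5, VTC4 with 102 ± 19.0 and GME with 91.8 ± 4.22, and VTC1 overlapped with VTC4 and VTC4 with GME. L-GalDH followed with 32.7 ± 4.09. GLDH with 12.5 ± 1.73 and VTC5 with 12.2 ± 1.76 had the lowest levels and overlapped.

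In high light VTC2 still led, with 118 ± 9.28 CPM per kilobase, but over a narrower margin. GME came next with 84.4 ± 2.70 and VTC1 with 76.7 ± 12.9, and these overlapped. VTC4 with 36.0 ± 5.70, L-GalDH with 25.5 ± 3.63, VTC5 with 17.4 ± 1.0005 and GLDH with 10.5 ± 1.23 followed in that order with no overlap between neighbours. In high CO2 VTC4 lay above every GME value in 2 libraries and below in 1, and in high light it lay below GME in every library.

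**Figure D3:**
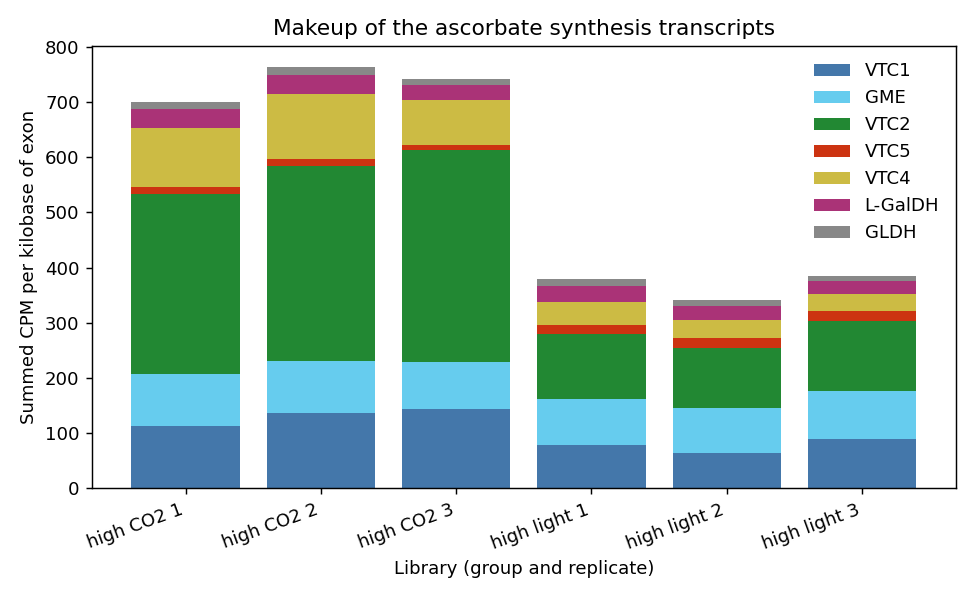
Summed level of the 7 genes in each library, in CPM per kilobase of exon, stacked by gene from VTC1 at the bottom to GLDH at the top. The bars reach 701 to 764 in high CO2 and 340.5 to 385 in high light, and the VTC2 part shrinks most.

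The 7 genes together summed to 701, 764 and 742 CPM per kilobase in the high CO2 libraries, against to 379, 340.5 and 385 in high light, with means of 736 ± 31.9 and 368 ± 24.3, a ratio of 0.501 for high light over high CO2. VTC2 alone made up 48.1% ± 2.96 of the sum in high CO2 and 32.0% ± 0.943 in high light. The sum without VTC2 was 382 ± 25.7 in high CO2 and 250.5 ± 16.1 CPM per kilobase in high light. The share of GME went from 12.5% ± 0.847 to 23.0% ± 1.15, with a nearly level transcript in a smaller sum.

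Most leaf markers fell, as did VTC1, VTC2 and VTC4, while VTC5 rose and GME, L-GalDH and GLDH were not called. The share called lower over all genes tested was 30.4%. All 5 mesophyll markers fell (LHCB1.3, with 2 near-identical copies, is uncertain), among them the Rubisco activase gene RCA (adjusted p = 5.6e-05 in edgeR, log2 fold change -1.65 ± 0.17) and the glycine decarboxylase gene GLDP1 (-1.55 ± 0.18, edgeR adjusted p = 1.2e-04), falls of about the size of VTC2 and VTC4. In leaf samples fewer cells of a type and less RNA per cell cannot be told apart, and the part of the markers in the result was not tested. Of 4 epidermis and guard cell markers 3 fell, ATML1 (-0.85 ± 0.13) and FAMA (-0.82 ± 0.15) most (edgeR adjusted p = 4.6e-04 and 0.00143). The sum of the 4 was 57.3 to 77.7 CPM in high CO2 and 43.7 to 48.6 CPM in high light. The other fallen marker, GL2, lost its call when high CO2 replicate 1 or 2, high light replicate 2 or 3, or the third replicate of both groups was left out, and with the DESeq2 test (adjusted p = 0.0541 to 0.114), which left 2 of 4. Both vascular markers fell, ATHB8 by 1.22 ± 0.20 and SUC2 by 0.50 ± 0.15 on the log2 scale (edgeR adjusted p = 8.6e-04 and 0.0197), with sums of 216 to 231 and 135 to 178 CPM. SUC2 was not called without high CO2 replicate 2, high light replicate 1 or high light replicate 2 (edgeR adjusted p = 0.0878, 0.0639 and 0.0728). Of the 3 flower and pollen markers 1 was tested, AG, with 73 counts in high CO2 and 33 in high light (-1.22 ± 0.36, edgeR adjusted p = 0.0170); leaving out high CO2 replicate 2 or 3, or high light replicate 1 or 2, ended the call (edgeR adjusted p = 0.0521, 0.0705, 0.0539 and 0.0615). AG had 10, 9 and 14 counts in the high light libraries. Only in high CO2, where AG is high, did every library reach the minimum count of the filter. The 4 root markers and 2 seed markers did not pass the filter on low counts. With no filter the root hair gene EXPA7 was called higher (edgeR adjusted p = 0.0114; DESeq2 adjusted p = 0.00621), with 0 counts in each high CO2 library and 12, 2 and 5 in the high light libraries. The root marker WOX5 was called higher in 1 refit, without replicate 3 of both groups (edgeR adjusted p = 0.0422).

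Genes around the pathway were counted next, in 9 lists. Their counts of calls stand beside 30.4% of all tested genes called higher and 30.4% lower, and were not tested against these shares. Upstream, the 5 isomerase and mutase genes that lead from glucose phosphate to mannose phosphate went both ways, with 2 risen, 2 fallen and 1 not called (median log2 fold change -0.22). PMI2, a phosphomannose isomerase known to be induced in the dark, rose from 3.44 ± 0.483 to 11.6 ± 1.65 CPM (adjusted p = 5.5e-05 in edgeR, log2 fold change 1.75 ± 0.18). The other phosphomannose isomerase gene, PMI1, had higher levels and fell from 88.6 ± 0.652 to 57.9 ± 12.8 CPM (-0.61 ± 0.16, edgeR adjusted p = 0.0103). Its edgeR refits gave adjusted p of 0.00162 to 0.0591. PGI1, the plastid phosphoglucose isomerase, fell from 194 ± 14.2 to 122 ± 3.24 CPM (-0.67 ± 0.13, edgeR adjusted p = 0.00167). With upper-quartile factors 1 of the 5 rose and 3 fell.

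Relatives and stimulators of VTC1 gave 1 rise and 2 falls among 3 tested genes (median -0.63). KJC2, a KONJAC protein that stimulates the pyrophosphorylase, rose from 3.35 ± 0.471 to 7.44 ± 0.837 CPM (1.15 ± 0.18, edgeR adjusted p = 5.9e-04). The other KONJAC gene, KJC1, had higher levels and fell from 84.8 ± 10.05 to 55.0 ± 5.84 CPM (-0.63 ± 0.14, edgeR adjusted p = 0.00468). The VTC1-like gene AT4G30570 fell from 1.78 ± 0.179 to 0.553 ± 0.320 CPM (-1.67 ± 0.42, edgeR adjusted p = 0.00779). The other VTC1-like gene, AT3G55590, had 0 counts in all 6 libraries, which allows up to 3 counts or 0.0232 CPM.

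Genes next to VTC4, its relatives and the myo-inositol phosphate synthases, fell for 4 of 5 members with 0 risen (median -0.94). The share called lower over all genes tested was 30.4%. MIPS1 fell from 536 ± 160 to 247 ± 97.1 CPM (-1.12 ± 0.31, edgeR adjusted p = 0.0124) and MIPS2 from 63.9 ± 25.8 to 30.3 ± 5.44 CPM (-1.08 ± 0.28, edgeR adjusted p = 0.00917). Their spread among high CO2 libraries was wide beside that of the members.

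At GDP-mannose the route to ascorbate parts from those that serve the wall and glycoproteins. Of the 5 tested genes listed with these other branches 4 rose and 1 fell (median 1.05), beside 30.4% of all genes in each direction. These counts for the list were the same in all 14 refits. The fall was that of FKGP, a fucose salvage gene whose enzyme does not use GDP-mannose. It went from 28.9 ± 3.09 to 15.8 ± 1.03 CPM (-0.87 ± 0.13, edgeR adjusted p = 4.6e-04). MUR1, a GDP-mannose dehydratase on the way to GDP-fucose, rose from 45.1 ± 2.80 to 133 ± 14.8 CPM (1.56 ± 0.13, edgeR adjusted p = 2.0e-05). GONST1, which carries GDP-sugars into the Golgi, rose from 7.89 ± 0.482 to 22.7 ± 3.76 CPM (1.53 ± 0.16, edgeR adjusted p = 5.4e-05). The members downstream of the same branch point are GME, VTC2, VTC5, VTC4, L-GalDH and GLDH, of which 2 fell and 1 rose.

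Regulators named for ascorbate synthesis gave 2 rises, 1 fall and 2 genes not called among 5 tested (median -0.12). ERF98, an ethylene response factor known as an activator of VTC1 and other ascorbate genes, had 20 counts in high CO2 and 1611 in high light. It rose from 0.315 ± 0.109 to 24.4 ± 7.84 CPM (6.24 ± 0.36, edgeR adjusted p = 2.0e-06). Its high CO2 libraries held 9, 7 and 4 counts, below the minimum count of the filter. ERF98 was thus tested through its high light counts, and only a rise could be called. Any link of ERF98 to the VTC1 level was not tested. PLP, a light-sensing PAS/LOV protein whose tomato counterpart is known as an inhibitor of GDP-L-galactose phosphorylase, rose from 13.5 ± 1.29 to 37.3 ± 2.48 CPM (1.46 ± 0.13, edgeR adjusted p = 2.0e-05). AMR1, a known repressor of the pathway genes, and ABI4 had 0 counts in all libraries.

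Most genes of other proposed routes to ascorbate had few counts. Of 11 genes of myo-inositol oxygenases and gulonolactone oxidases 3 passed the filter and 1 of these rose: MIOX2, with 4 counts in high CO2 and 54 in high light (3.56 ± 0.72, edgeR adjusted p = 0.00220), a level of 0.806 ± 0.334 CPM. MIOX2 passed the filter on low counts only through its high light libraries, so only a rise could be called. Without high light replicate 1 it did not pass. MIOX1, named after its values were seen as the most counted of them, was counted 83, 160 and 232 times at high CO2, against 196, 224 and 231 times in high light (0.35 ± 0.34 on the log2 scale, edgeR adjusted p = 0.390). The edgeR refits gave MIOX1 log2 fold changes of 0.04 to 0.88 and adjusted p of 0.0130 to 0.890. Without high CO2 replicate 3, and without replicate 3 of both groups, 2 genes of the list were called higher. The 11 genes together summed to 5.77 to 13.6 CPM in high CO2 and 11.1 to 12.0 CPM in high light.

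The complex I subunits of the gamma carbonic anhydrase family, part of the arm that GLDH helps to assemble, fell for 2 of 5 members with 0 risen (median -0.34). GAMMA CA3 fell from 82.8 ± 10.1 to 59.2 ± 4.35 CPM (-0.48 ± 0.13, edgeR adjusted p = 0.0129) and GAMMA CAL1 from 58.9 ± 10.4 to 42.8 ± 5.60 CPM (-0.46 ± 0.17, edgeR adjusted p = 0.0380). Neither was called without high CO2 replicate 2 (edgeR adjusted p = 0.0842 and 0.164), and GAMMA CAL1 was also lost without high CO2 replicate 1 and without high light replicate 2 or 3 (edgeR adjusted p = 0.118, 0.124 and 0.1002), and with DESeq2 size factors (edgeR adjusted p = 0.0509) or the DESeq2 test (adjusted p = 0.0600). Over the 14 refits 0 to 4 of the 5 fell.

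**Figure D4:**
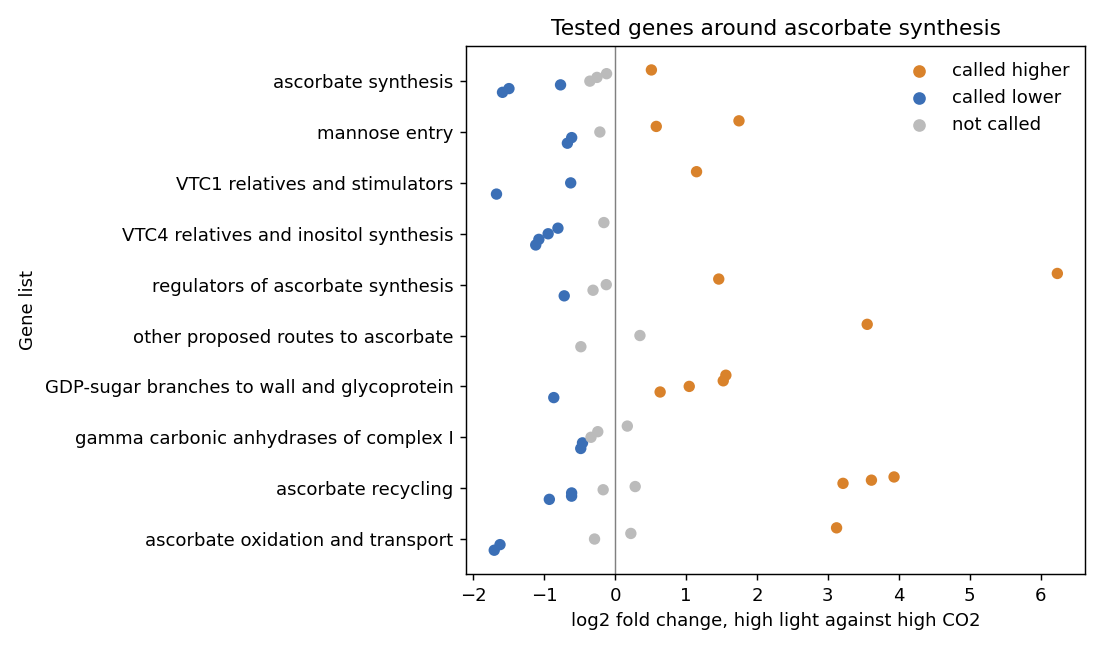
Log2 fold change, high light against high CO2, of each tested gene of the ascorbate synthesis set and of the 9 lists around it; orange points were called higher, blue points lower and grey points were not called. The synthesis genes lie between -1.59 and 0.51, whereas the recycling list reaches 3.93 and the regulators 6.24. The point at 6.24 is ERF98, which passed the filter on low counts through its high light libraries.

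Regeneration and use of ascorbate complete the picture of its transcripts. Of 8 reductases that recycle oxidised ascorbate 3 rose and 3 fell (median 0.06), beside 30.4% of all genes in each direction. The rises of these reductases were larger than any change among the synthesis genes. DHAR2, a cytosolic dehydroascorbate reductase, rose from 38.6 ± 7.10 to 474 ± 19.0 CPM (3.62 ± 0.18, edgeR adjusted p = 8.8e-07) and MDAR3 from 1.16 ± 0.353 to 17.7 ± 4.73 CPM (3.93 ± 0.28, edgeR adjusted p = 6.7e-06). The other rise was that of MDAR2, from 87.9 ± 13.2 to 816 ± 126 CPM (3.21 ± 0.19, edgeR adjusted p = 2.2e-06). The falls were those of DHAR3 (288 to 189 CPM), MDAR4 (201 to 131 CPM) and MDAR6 (144 to 75.9 CPM). Their log2 fold changes were -0.61, -0.61 and -0.93 (edgeR adjusted p = 0.00611, 0.00389 and 0.00553). Summed, the recycling list had 1489 to 1664 CPM in high CO2 and 2239 to 2812 CPM in high light. The 7 synthesis genes had 1342 to 1462 and 645 to 735 CPM. Of 5 genes of ascorbate oxidation, transport and use 1 rose and 2 fell (median -0.29). The ascorbate oxidase gene AT4G39830 rose from 1.18 ± 0.299 to 10.2 ± 3.85 CPM (3.12 ± 0.33, edgeR adjusted p = 6.4e-05). The oxidase gene AT5G21100, with higher levels, fell from 82.0 ± 6.12 to 26.6 ± 2.09 CPM (-1.62 ± 0.12, edgeR adjusted p = 9.7e-06). A further oxidase gene, AT5G21105, was not called, with 29.3 ± 5.71 and 34.2 ± 2.37 CPM. PHT4;4, which carries ascorbate into chloroplasts, fell from 131 ± 10.1 to 40.1 ± 6.33 CPM (-1.70 ± 0.15, edgeR adjusted p = 2.3e-05), a log2 fold change close to that of VTC2.

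For each member the 2 genes with the most similar course over the 6 libraries were found among all other genes tested, by the root mean square difference of log2 CPM after centring each gene on its own mean. This measure mostly reads the difference between the groups and is a description of these libraries. Nearest to VTC2 were the potassium transporter gene KUP3 (0.0446) and NdhT (0.0523), a subunit of the chloroplast NDH complex. VTC4 lay nearest to FBA2 (0.0505), a plastid aldolase of the Calvin-Benson cycle, and AT5G55570 (0.0547). VTC1 lay nearest to the pyrophosphatase gene PPa5 (0.0642) and AT5G13720 (0.0643), and VTC5 to AT2G29340 (0.0332) and AT1G60080 (0.0447). The nearest genes were AT3G28700 (0.0319) and the peroxisomal malate dehydrogenase gene PMDH1 (0.0320) for GME, CXIP2 (0.0257) and AT3G24570 (0.0284) for L-GalDH, and FUS9 (0.0567) and AT5G53920 (0.0578) for GLDH. Among the members themselves L-GalDH and GLDH were closest (0.0854) and VTC2 and VTC5 farthest apart (1.07), with 0.265 between VTC2 and VTC4.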

How the data were processed

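Leaf RNA (TRIzol, then RNeasy) went into TruSeq Stranded mRNA libraries, per the labels' protocols. Per the submitters' processing notes, the tools were Trim Galore 0.3.3, TopHat2 2.1.0 and featureCounts of Subread 1.4.6, on TAIR10; their strand setting is not given in the sources used here. What the authors deposited are raw counts per gene, and 2 leftover header lines were dropped.

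Groups came from the sample titles. Genes were kept by filterByExpr (minimum count 10), scaled by TMM and tested with edgeR 4.0.16 in R 4.3.3 (glmQLFit and glmQLFTest, robust; 4 residual degrees of freedom; two-sided). The procedure was tested on simulated data. The simulation changed a far smaller part of the genes than was called here, so it does not bear on the choice of scaling. DESeq2 1.42.0 and limma 3.58.1 (voom) were alternatives, beside other scalings, no filter, a replicate block and left-out libraries. Exact permutation tests used SciPy 1.17.1, and coding sequences were compared with BLAST 2.17.0. The TAIR10.1 annotation gave exon lengths and names (32835 of 33602 loci found); its build name differs from TAIR10, so coordinates were left out. Floors of 3 counts and intervals at 0 counts cover counting error only. Over genes with 10 or more counts, replicate pairs differed by a chi-square of 9.28 to 49.8 per degree of freedom, so none was a copy.

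The members, lists and tests were chosen with earlier results of these data known. Besides the members and CAT2, the text names the 2 called genes with the largest absolute log2 fold change of each list and the 2 nearest genes of each member. Further names are markers, genes at 0 counts and genes named after their values were seen. The latter are MIOX1, PMI1, KJC1, FKGP, MDAR2, MDAR4, MDAR6, DHAR3 and the oxidase genes AT5G21100 and AT5G21105.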

Additional observations from a re-analysis of the deposited data

How the results depend on the processing

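Over 14 alternatives, the falls of VTC1, VTC2 and VTC4 were called in all, with log2 fold changes of -1.04 to -0.64, -1.86 to -1.47 and -1.77 to -1.34. With upper-quartile factors 0 members rose and 6 fell, since VTC5 was no longer called (0.24) and GME (-0.39), L-GalDH (-0.62) and GLDH (-0.52) were; the difference of the summed level of the 7 genes, high light minus high CO2, was -472 CPM per kilobase there against -367. Leaving out 1 library at a time gave 1 risen and 3 to 4 fallen members, a difference in the VTC2 share, high light minus high CO2, of -9.93 to -8.77 percentage points (-9.54 with all libraries) and a summed level of -385 to -353. Without replicate 3 of both groups, which stood apart on the second principal component (4.90% of the variance), 1 member rose and 3 fell. With the replicate block 1 member rose and 4 fell, L-GalDH among them (-0.36, edgeR adjusted p = 0.0223, range 0.00647 to 0.255 over its edgeR refits). Same-numbered libraries correlated in their deviations from the group means at 0.219, -0.0207 and 0.410 across genes, and high CO2 replicate 1 correlated better with high light replicate 2 (0.235). The labels say that the set-up was repeated but not that a number marks a set-up, so whether the numbers pair the libraries is uncertain. With 18047295 counts or more per library, genes under about 1 CPM were the ones depth limited; the members lay well above.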
